A study of Homo sapiens with 8 samples.

Results

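Trimethylation of histone H3 at lysine 4 (H3K4me3) was examined gene by gene in PC9, a cell line from a human lung adenocarcinoma, after treatment with 1 μM GSK126 for 5 days or with DMSO as the vehicle. The unit of analysis was the promoter of a protein-coding gene, taken as the 2000 bp on either side of the gene start in the GENCODE annotation of GRCh37, which gave 20162 promoters in 17678 loci. For each promoter it was asked whether the H3K4me3 island was gained, lost, narrowed or widened with GSK126 in both replicates. H3K4me3 was carried by 4 of the 8 libraries of the series: DMSO replicates 1 and 2, and GSK126 replicates 1 and 2. The other 4 libraries carried H3K27me3 from the same treatments and were used only as a second readout. The study added a small amount of D. melanogaster chromatin and an antibody against the fly histone variant H2Av to each reaction, so that treated and control libraries could be scaled to fly tags (spike-in normalization) in place of human tags (standard normalization).

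GSK126 inhibits EZH2, the catalytic subunit of Polycomb repressive complex 2 (PRC2), which deposits H3K27me3 at silenced genes. H3K4me3 is deposited by the SETD1 and KMT2 (MLL) complexes, is removed by KDM5 demethylases, and marks the start of active genes, where it usually covers a CpG-rich promoter. Developmental genes held silent by PRC2 can carry both marks, a state known as bivalent chromatin. The series consisted of 1 cell line and 1 dose, and no measurement of transcription was used here.

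The deposited data were lists of islands, regions that the SICER algorithm found enriched for sequencing tags, each with a length in steps of 200 bp and a score. The score is a sum over the windows of an island, in which each window adds minus the natural log of the chance that a Poisson background gives its tag count, so that it grows with both length and tag number. An island was assigned to a promoter when it overlapped the window by at least 200 bp, and its whole length was counted. A promoter was called gained when no island was present with DMSO and an island was present with GSK126, and lost in the reverse case. It was called narrowed when the summed island length with GSK126 was at most 0.75 times, and at least 400 bp under, that with DMSO. Widened promoters were at least 1.33 times as long and at least 400 bp longer with GSK126. Each GSK126 library had 1 list for each normalization, whereas the only list of each DMSO library served for both. The replicates differed in depth: the tag density read from the scores was 1.77 tags per window of 200 bp in replicate 1 and 0.302 in replicate 2, a ratio of 5.86. Within a replicate, DMSO and GSK126 standard lists had the same tag density, and the spike-in lists of GSK126 held 83.6% and 86.9% of it.

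Sequences of 5 promoters on which the results below turn are shown first, because CpG content is the main sequence feature associated with H3K4me3. Each is the 250 bases before the gene start on the strand of the gene, from GRCh37, with every CpG in capitals. PLPPR4 (chr1:99729598-99729847, plus strand) and PPFIA2 (chr12:82153333-82153582, minus strand) gained an island. DLEC1 (chr3:38080446-38080695, plus strand) lost one. CKB (chr14:103989171-103989420, minus strand) and HIC1 (chr17:1957198-1957447, plus strand) were called narrowed.
PLPPR4: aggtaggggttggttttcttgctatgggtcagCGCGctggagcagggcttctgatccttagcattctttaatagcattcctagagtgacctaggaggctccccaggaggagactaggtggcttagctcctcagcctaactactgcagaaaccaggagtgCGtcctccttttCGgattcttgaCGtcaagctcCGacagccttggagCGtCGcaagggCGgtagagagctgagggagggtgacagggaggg
PPFIA2: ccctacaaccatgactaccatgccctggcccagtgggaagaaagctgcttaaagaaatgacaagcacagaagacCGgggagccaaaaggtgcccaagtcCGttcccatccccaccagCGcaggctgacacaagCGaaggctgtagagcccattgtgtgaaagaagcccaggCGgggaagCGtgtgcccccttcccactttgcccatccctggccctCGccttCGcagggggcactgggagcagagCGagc
DLEC1: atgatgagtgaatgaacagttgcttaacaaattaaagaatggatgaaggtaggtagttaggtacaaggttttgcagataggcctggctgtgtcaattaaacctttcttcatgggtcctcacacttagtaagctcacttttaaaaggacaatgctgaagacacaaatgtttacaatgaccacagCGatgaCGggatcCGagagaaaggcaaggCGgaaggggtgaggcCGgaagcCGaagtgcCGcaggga
CKB: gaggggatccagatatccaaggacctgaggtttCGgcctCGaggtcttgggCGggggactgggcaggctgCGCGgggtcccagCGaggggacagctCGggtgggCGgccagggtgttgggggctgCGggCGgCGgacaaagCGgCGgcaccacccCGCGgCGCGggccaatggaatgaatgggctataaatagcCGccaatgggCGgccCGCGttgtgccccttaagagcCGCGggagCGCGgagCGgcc
HIC1: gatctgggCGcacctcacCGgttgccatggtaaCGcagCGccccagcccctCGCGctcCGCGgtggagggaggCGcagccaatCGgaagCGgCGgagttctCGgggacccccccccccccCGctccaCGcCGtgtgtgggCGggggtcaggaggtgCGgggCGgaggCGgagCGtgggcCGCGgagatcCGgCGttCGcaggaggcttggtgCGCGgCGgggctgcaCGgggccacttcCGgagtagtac

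The promoters that gained or lost an island were poorer in CpG than those called narrowed or widened, but the gained ones were richer than the promoters from which they came. The 250 bases of PLPPR4 and PPFIA2 hold 9 CpG each and those of DLEC1 hold 7, compared to 26 in CKB and 31 in HIC1. Over the 300 bases from 250 before to 50 after the start, the median ratio of observed to expected CpG was 0.821 for the 11975 promoters with an island in all 4 standard lists and 0.295 for the 7347 without an island in any. It was 0.334 for the 14 lost promoters, compared to 0.818 for the 12143 with an island in both DMSO lists, from which they came. For the 10 gained promoters it was 0.573, compared to 0.297 for the 7421 without an island in either DMSO list, from which they came. The median over all promoters was 0.694. For the 384 narrowed promoters the median was 0.788, and for the 31 widened promoters 0.773, both close to that of promoters with an island in all 4 lists. The letters TATAAA on either strand were found in 14.3% of lost, 10.0% of gained, 4.17% of narrowed and 6.45% of widened promoters, compared to 10.9% of all. CCAAT was found in 28.6%, 10.0%, 32.6% and 45.2% in the same order, compared to 35.8% of all. For TATAAA the share was 5.84% of the promoters from which the lost ones came and 19.1% of those from which the gained ones came.

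Most promoters kept their H3K4me3 state upon EZH2 inhibition. In the standard lists, 11975 promoters (59.4%) had an island in all 4 lists, 7347 (36.4%) had none in any list, and 840 (4.17%) had an island in some lists. With the spike-in lists these numbers were 11942, 7379 and 841. An island was present at 12726 and 12158 promoters with DMSO in replicates 1 and 2, at 12608 and 12147 with GSK126 in the standard lists, and at 12534 and 12074 in the spike-in lists. In the standard lists the number was lower with GSK126 in each replicate, but by little in replicate 2. It was lower again in the spike-in lists, which were made from fewer tags than the DMSO lists. Markers of cell types were checked against the label of the line, and islands were present in all 4 lists at 6 of 8 epithelial and 4 of 11 lung lineage markers, at 1 of 6 fibroblast and 1 of 3 endothelial markers, and at none of 7 immune and 4 neuroendocrine markers.

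The typical change in island length or score was smaller than the spread between promoters, and the replicates disagreed on the direction of the score. In replicate 1 the median island length at promoters was 4400 bp for DMSO and 4000 bp for GSK126, and in replicate 2 it was 2400 bp for both. Over the 11975 promoters with an island in all 4 standard lists, the median log2 ratio of GSK126 to DMSO length was -0.14 in replicate 1 and -0.05 in replicate 2, with standard deviations over promoters of 0.31 and 0.40. The median log2 ratio of scores was 0.08 in replicate 1 and -0.08 in replicate 2. Of the promoters, 24.2% had a lower score with GSK126 in both replicates, 28.5% a higher score in both, and 47.3% moved in opposite directions. For length, 35.4% were shorter with GSK126 in both replicates, 7.04% were longer in both, and 31.6% moved in opposite directions. Across promoters, which are not independent and share the 4 libraries, Pearson's r between the log2 ratios of the replicates was 0.04 for length and 0.201 for score. In the spike-in lists the median log2 score ratio was -0.19 and -0.28, but those lists were made from fewer tags than the DMSO lists, and their scores are not on the same scale.

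**Figure D1:**
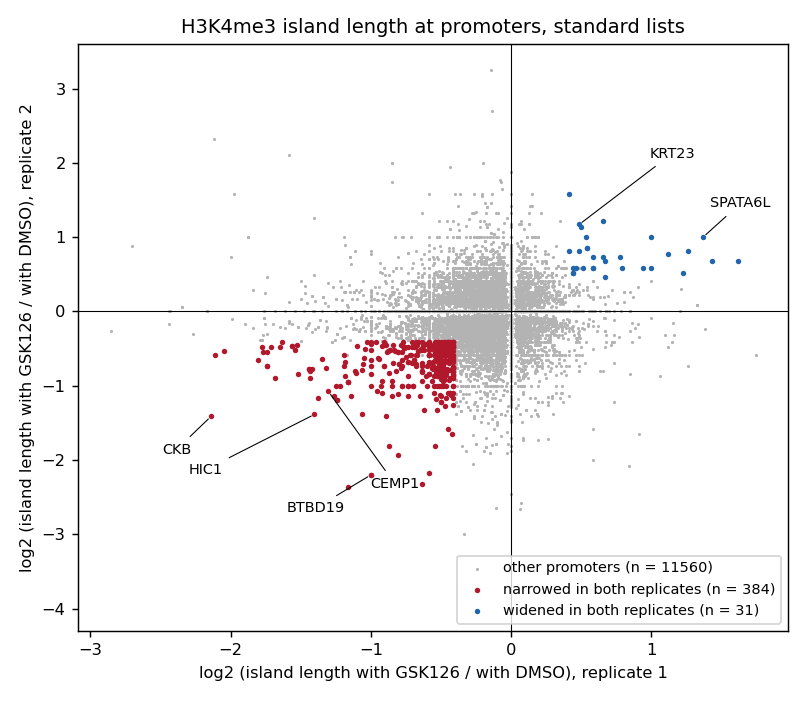
Log2 ratio of H3K4me3 island length with GSK126 over DMSO in replicate 1 (x axis) and replicate 2 (y axis), 1 point for each of 11975 promoters in the standard lists. The cloud is round (r = 0.04), with 384 promoters narrowed in both replicates at the lower left in red and 31 widened in both at the upper right in blue.

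Gene by gene, few promoters changed class in the same way in both replicates. In the standard lists, 10 of 7421 promoters without an island in either DMSO list gained one in both replicates (0.135%), and 14 of 12143 with an island in both DMSO lists lost it in both (0.115%). Of the 11975 promoters with an island in all 4 lists, 384 were narrowed in both replicates (3.21%) and 31 were widened in both (0.259%). In the spike-in lists the corresponding numbers were 5 gained (0.0674%), 25 lost (0.206%), 374 narrowed (3.13%) and 34 widened (0.285%). Both normalizations shared 5 gained, 13 lost, 235 narrowed and 23 widened promoters, or 0.0674%, 0.107%, 1.97% and 0.193% of those that could be called.

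Calls in replicate 1 recurred in replicate 2 at shares above those over all promoters, but for narrowing the share was close to that over all promoters. Among promoters that could be called in both replicates, the highest share was that of lost promoters from replicate 1 to 2, and that of gained promoters from replicate 2 to 1. In the standard lists 1931 promoters (16.1%) were narrowed in replicate 1 and 2000 (16.7%) in replicate 2. Of the 1931, 19.9% were narrowed again in replicate 2, compared to 16.7% over all promoters, and 155 were widened there. Of the 206 widened in replicate 1, 15.0% were widened again in replicate 2, compared to 8.72% over all promoters, and 36 were narrowed. Of 63 promoters that gained an island in replicate 1, 15.9% did so in replicate 2, compared to 0.283% of all that could. Of the 21 that gained an island in replicate 2, 47.6% did so in replicate 1, compared to 0.849% of all that could. These 63 and 21 had no island in either DMSO list. Without that condition 159 promoters were gained in replicate 2, and 6.29% of them were gained in both replicates. Among promoters with an island in both DMSO lists, 14 of the 21 lost in replicate 1, or 66.7%, were also lost in replicate 2. There, 1.33% of all such promoters were lost. The 161 of them lost in replicate 2 were mostly not lost in replicate 1, where 8.7% of them were. Without the condition on both DMSO lists, 186 promoters were lost in replicate 1, and 7.53% of them were lost in both replicates. These counts are given without a test, because the smallest p-value that an exact sign-flip test over 2 pairs allows is 0.5.

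**Figure D2:**
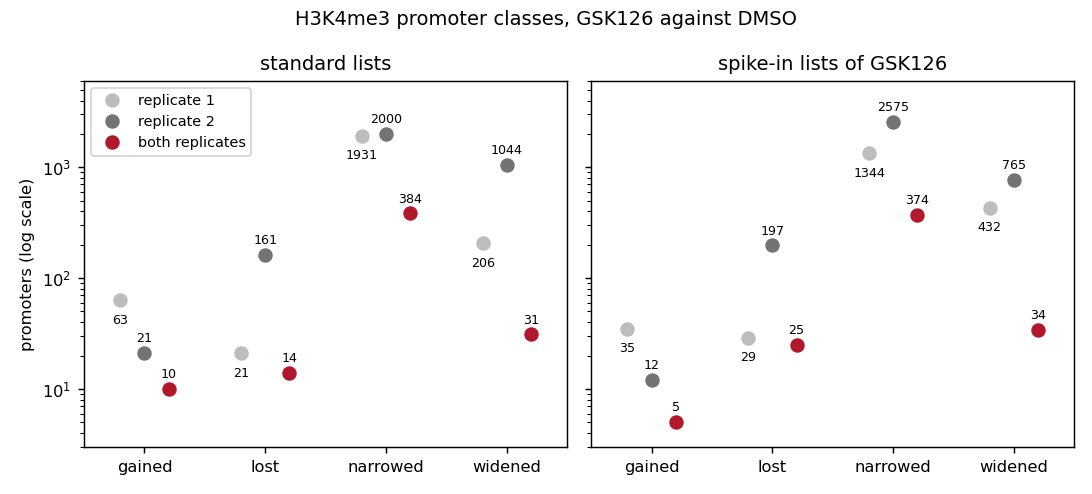
Number of promoters (log scale) called gained, lost, narrowed or widened with GSK126 in replicate 1, in replicate 2 and in both, for the standard lists (left) and the spike-in lists (right), among the promoters that could be called in both replicates. In each class the promoters called in both replicates are fewer than in either replicate, as in 384 narrowed against 1931 and 2000.

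The 5 promoters that gained an island in both normalizations belonged to PPFIA2, PLPPR4, SPAG17, NCMAP and UGT3A2. PPFIA2 encodes liprin-α2, a scaffold protein of the presynaptic active zone, and PLPPR4 a neuronal membrane protein related to lipid phosphatases. SPAG17 encodes a protein of the axoneme of motile cilia, NCMAP a protein of non-compact myelin, and UGT3A2 a glycosyltransferase. None of them had an island with DMSO in either replicate within the window, and the islands found with GSK126 overlapped no DMSO island elsewhere. At PPFIA2 the island measured 1800 bp with a score of 105.7 in replicate 1 and 1000 bp with 28.4 in replicate 2. At PLPPR4 it measured 600 bp (49.07) and 1200 bp (40.21). The islands of SPAG17, NCMAP and UGT3A2 scored 58.93, 62.34 and 89.11 in replicate 1, and 28.27, 27.25 and 23.97 in replicate 2. At UGT3A2 the annotated gene start lies 4476 bp from the start of the canonical transcript, where no island was found in any list. All 5 were thus found with GSK126 only, at scores far under the median promoter with DMSO (2462 in replicate 1 and 605.7 in replicate 2) and in replicate 2 between 23.97 and 40.21, where the lowest score of the list was 22.62. When only islands with at least 2 times the lowest score of their list were kept, no promoter gained an island in both replicates, in the standard or in the spike-in lists.

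The other 5 promoters gained in the standard lists were PTPRD, KCNJ5, ATP12A, TRIB3 and ZBP1, which include a receptor phosphatase (PTPRD), a potassium channel (KCNJ5) and a sensor of Z-form nucleic acids (ZBP1). Their scores lay between 32.46 and 41.62 in replicate 1, and between 23.53 and 29.21 in replicate 2. With the spike-in lists, PTPRD, KCNJ5 and TRIB3 had no island in either replicate, ATP12A had one in replicate 1 only and ZBP1 in replicate 2 only. TRIB3 was not called gained at its canonical start, 17925 bp away, where islands were present with DMSO.

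The 13 promoters that lost an island in both normalizations included 3 with strong DMSO islands that lay mostly outside the window, SLC26A1, SEMA3C and EXOC3L4. SLC26A1 encodes a sulfate and anion transporter, SEMA3C a secreted semaphorin, and EXOC3L4 a protein related to an exocyst subunit. At SLC26A1 the DMSO islands measured 7600 bp (score 3214) in replicate 1 and 5800 bp (745.6) in replicate 2. Those of SEMA3C measured 4800 bp (1753) and 2400 bp (146.5), and those of EXOC3L4 5600 bp (1033) and 4000 bp (250.7). The DMSO islands overlapped the window by 773 and 373 bp at SLC26A1, by 1326 and 326 bp at SEMA3C, and by 339 bp in both replicates at EXOC3L4. At these 3 promoters the island did not vanish but drew back from the window. The GSK126 islands of SLC26A1 in the standard lists scored 2858 and 808.7. At EXOC3L4 the GSK126 island of replicate 1 still reached 139 bp into the window. In replicates 1 and 2, GSK126 islands of the standard lists still covered 5600 and 4000 bp of the SLC26A1 island, 3600 and 2000 bp of the SEMA3C island, and 3200 and 600 bp of the EXOC3L4 island. At SEMA3C, the GSK126 island of replicate 1 reached 126 bp into the window, under the minimum of 200 bp, and scored 2016 over 3600 bp. The calls for SEMA3C and EXOC3L4 were not found in both replicates with an overlap of at least 1 bp. That for SEMA3C was also not found at the start of its canonical transcript, 3308 bp away.

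The other 10 lost promoters had weak islands with DMSO and no overlapping island with GSK126 in either replicate of the standard lists. WNK4 encodes a kinase that regulates ion transport, PTPRF a receptor phosphatase, MMP19 a matrix metalloproteinase, and LHX2 a LIM homeobox factor. DLEC1 is named for its deletion in lung and esophageal cancer, TFF2 encodes a trefoil peptide of mucous epithelia, KRT86 a hair keratin, DAB2IP a Ras GTPase-activating protein, BEGAIN a postsynaptic protein and ZBED2 a zinc finger protein. The highest DMSO score of these 10 was that of LHX2, at 188.3 over 3000 bp in replicate 1 and 31.79 over 1400 bp in replicate 2. WNK4 scored 110.5 and 41.15, PTPRF 102.9 and 35.04, and TFF2 72.14 and 23.13. MMP19 scored 45.03 over 1200 bp and 34.53 over 1000 bp, and DLEC1 36.88 over 1600 bp and 28.81 over 1200 bp. BEGAIN, ZBED2, KRT86 and DAB2IP scored between 37.64 and 50.33 in replicate 1, and between 23.01 and 24.11 in replicate 2. In replicate 2 the scores of all 10 lay between 23.01 and 41.15, where the lowest score of the list was 22.62. At LHX2 and PTPRF the gene start of the annotation lies 10098 bp and 5696 bp from the start of the canonical transcript, and neither was called at that start. KLHL30 was lost in the standard lists only, with DMSO scores of 37.25 and 146.5.

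**Figure D3:**
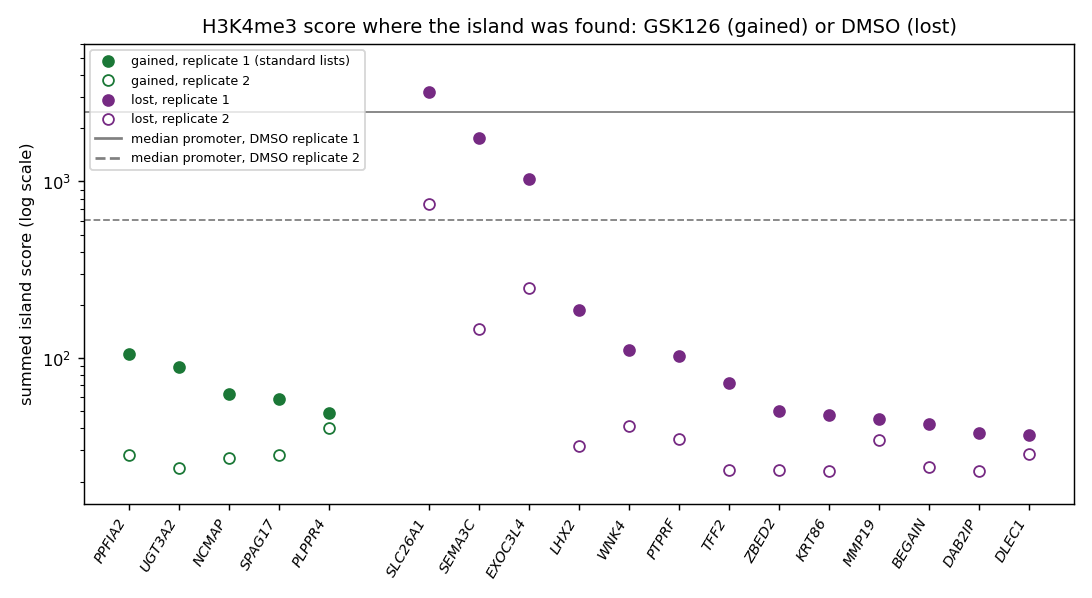
Summed H3K4me3 island score (log scale) at the 5 gained promoters (GSK126, standard lists, green) and the 13 lost promoters (DMSO, purple), with filled points for replicate 1 and open points for replicate 2. Grey lines mark the median promoter with DMSO (2462 in replicate 1, 605.7 in replicate 2), and apart from SLC26A1 the points lie under the line of their replicate.

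Narrowing was the most frequent class, and the 235 promoters narrowed in both normalizations ranged from CKB to promoters just past the limit of 0.75 times. CKB encodes the brain isoform of creatine kinase. Its island measured 28200 bp with DMSO, 6400 bp with GSK126 in the standard list and 8000 bp in the spike-in one, all in replicate 1. In replicate 2 it measured 4800 bp, 1800 bp and 1800 bp. The scores were 15550, 3552 and 3096 in replicate 1, and 1367, 1058 and 936.6 in replicate 2. Length and score at CKB were thus lower with GSK126 in both replicates and both normalizations, although in replicate 1 a further GSK126 island of 10000 bp and score 9914 lay outside the window but within the DMSO island. In the score test described below, CKB did not pass (log2 difference of -1.25, standard error 0.33, limma with Benjamini-Hochberg adjustment, adjusted p = 0.369).

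CEMP1, which encodes a protein of tooth cementum, was also narrowed in both replicates under each of 10 alternatives. It was the only 1 of the 10 most narrowed promoters with this result. The alternatives changed the list, chromosome set, overlap, threshold, window, length or gene start. Those of list and chromosome set could not fail here, because these promoters were chosen as narrowed in both normalizations and lie on autosomes. Its island measured 7400 bp with DMSO against 3000 bp (spike-in 3200 bp) with GSK126 in replicate 1, and 3800 bp against 1800 bp (1800 bp) in replicate 2. The scores of CEMP1 moved less than the lengths, from 1697 to 1413 and from 556.5 to 495.9 in the standard lists. RAD9A, a subunit of a DNA damage checkpoint clamp, and SSH3, a cofilin phosphatase, have annotated starts near each other on chromosome 11 that shared 1 DMSO island of 21600 bp in replicate 1. The canonical start of RAD9A lies 74115 bp away, and no narrowing was called there. With GSK126 it was found as separate islands, 5000 bp at RAD9A and 6200 bp at SSH3. In replicate 2, RAD9A narrowed from 3000 to 2000 bp while its score stayed at 1142 and 1163, and SSH3 narrowed from 6600 to 4200 bp while its score moved from 2249 to 1450. NUBP2, an assembly factor of iron-sulfur proteins, narrowed from 19800 to 4800 bp and from 5200 to 3600 bp. In replicate 1 this was a split, since further GSK126 islands of 9000 bp (score 10440) and 1800 bp (45.31) lay within the DMSO island but outside the NUBP2 window. The start shared by ILK, the integrin-linked kinase, and RRP8 narrowed from 14000 to 4200 bp and from 4000 to 2400 bp, and in replicate 1 a further GSK126 island of 4200 bp (1566) lay within the DMSO island outside the window. The start shared by NTHL1, a DNA glycosylase, and TSC2, a subunit of the complex that restrains mTORC1, narrowed from 11800 to 5000 bp and from 6400 to 2800 bp, with a further GSK126 island of 6600 bp (270.9) outside the window in replicate 1. In each of these genes the largest change was in replicate 1, the deeper replicate, where DMSO islands were longest.

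At HES5, a target of Notch signalling, the DMSO island of 13800 bp in replicate 1 was replaced by islands of 5200 and 1400 bp with GSK126. The summed score at HES5 hardly moved in replicate 1 (3372 and 3418). With GSK126, however, the 5200-bp island (3372) reached 499 bp into the window, and the 1400-bp island scored 45.79. In replicate 2 an island of 2600 bp (61.4) became 1000 bp (31.57). There the adjacent islands (688.4 with DMSO, 612.9 with GSK126) overlapped the window by 0 and 99 bp and were not counted. HES5 shares its locus with PANK4. C16orf86 narrowed from 12200 to 3800 bp and from 2600 to 1400 bp, and its summed score was 5959 and 935.8 in replicate 1, and 192.0 and 306.3 in replicate 2. The DMSO island of replicate 1 had split at C16orf86, and its stronger piece (6000 bp, 5457) lay outside the window with GSK126.

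Part of the narrowing was splitting of the DMSO island. The assigned island was more often shorter at its downstream than at its upstream end, as it also was over all promoters. A DMSO island overlapped several GSK126 islands at 79 of the 384 narrowed promoters (20.6%) in replicate 1 and at 34 (8.85%) in replicate 2, compared to 3.68% and 3.1% of the 11975. It did so in both replicates at 19 of the 384 (4.95%), compared to 31 of 11975 (0.259%), and in neither replicate at 290. GSK126 islands, inside or outside the window, covered a median of 70.6% and 66.1% of the DMSO islands at narrowed promoters, compared to 88.9% over all promoters in replicate 1 and a higher share in replicate 2. Of the 384 narrowed promoters, 343 had exactly 1 assigned island in each of the 4 lists. Among these 343, the downstream end alone drew back by at least 400 bp in both replicates at 149, the upstream end alone at 77 and both ends at 72, and at 45 no end did so in both replicates. Without the promoters at which an island split in either replicate, these numbers were 108, 62, 53 and 41 of 264. The median length given up downstream was 1000 bp in replicate 1 and 600 bp in replicate 2, and upstream 600 bp and 400 bp. Over all 11098 promoters with 1 island in each list, the medians were 200 bp at either end in replicate 1 and 0 bp in replicate 2. Of these 11098, 39.7% gave up at least 400 bp downstream and 35.2% upstream in replicate 1, and 24.6% and 20.7% in replicate 2. Of the 343, the shares were 81.3% and 70.0% in replicate 1, and 74.6% and 57.1% in replicate 2. When only the length inside the 4001-bp window was compared, 127 promoters were narrowed in both replicates, of which 90 were among the 384. With limits of 0.5 and 2 times in place of 0.75 and 1.33, 15 promoters were narrowed and 2 widened.

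The summed score was tested at the 11975 promoters with an island in all 4 standard lists, with limma and the replicate as a block. With only 2 pairs, the variance of each promoter rested mostly on what limma borrowed from all promoters (8.3 prior degrees of freedom after subtraction of the median). The adjusted p-values of this test depend on that borrowing. After the median of each replicate was subtracted, 3 promoters had a lower score with GSK126 at an adjusted p under 0.05 (0.0251%) and none had a higher score (0.0%). At an unadjusted p under 0.05, 723 promoters were lower and 445 were higher. Without subtraction of the median, the same numbers were 3 and 0 past adjustment and 508 and 255 before it. Without the block no promoter passed and 2 had an unadjusted p under 0.05, but that fit leaves the difference in depth between the replicates in the residual spread. In the spike-in lists, 2174 promoters had a lower score (18.2%) and 10 a higher score (0.0837%) without subtraction of the median, and 2 a lower (0.0167%) and 0 a higher score after it. Those lists were made from fewer tags than the DMSO lists, so the counts without subtraction compare scores on unlike scales. The 3 promoters lower in the standard lists after subtraction were BTBD19, DYNLT4 and HIC1.

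BTBD19, which encodes a BTB domain protein, and DYNLT4, a dynein light chain of the Tctex type, share their islands. With DMSO the island measured 11200 bp (score 5531) in replicate 1 and 9200 bp (1725) in replicate 2. The GSK126 islands assigned to these promoters in the standard lists measured 5600 bp (273.1) and 2000 bp (43.74). The log2 difference was -4.82 (standard error 0.215, adjusted p = 1.25e-05, limma with Benjamini-Hochberg adjustment). The DMSO island had split, however, and its stronger piece lay outside the BTBD19 window with GSK126, at 5200 bp and a score of 4551 in replicate 1 and 5200 bp and 1241 in replicate 2. In the spike-in list of replicate 1 the island was whole again (11200 bp, 3722), and in that of replicate 2 no island was assigned to BTBD19.

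HIC1 encodes a transcriptional repressor that is often silenced by methylation in cancer. With DMSO and GSK126, its summed length was 7400 and 2800 bp in replicate 1, and 6800 and 2600 bp in replicate 2. Its score was 4030 and 1455, and 1334 and 411.2 (log2 difference -1.58, standard error 0.12, adjusted p = 0.000894, limma with Benjamini-Hochberg adjustment). The island over the HIC1 start itself moved much less, from 2800 bp (1728) to 2800 bp (1455) and from 3000 bp (443.1) to 2600 bp (411.2). The rest came from an upstream island that overlapped the window by 353 bp with DMSO in both replicates and by 153 bp and 0 bp with GSK126. That island scored 2302 and 890.6 with DMSO and 2457 and 776.4 with GSK126. With an overlap of at least 1 bp, an alternative chosen after the data were seen, the log2 difference at HIC1 was -0.87 (limma with Benjamini-Hochberg adjustment, adjusted p = 0.358, compared to a range of 0.000131 to 0.891 over all alternatives), whereas that of BTBD19 stayed at -4.82 (adjusted p = 1.09e-05).

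**Figure D4:**
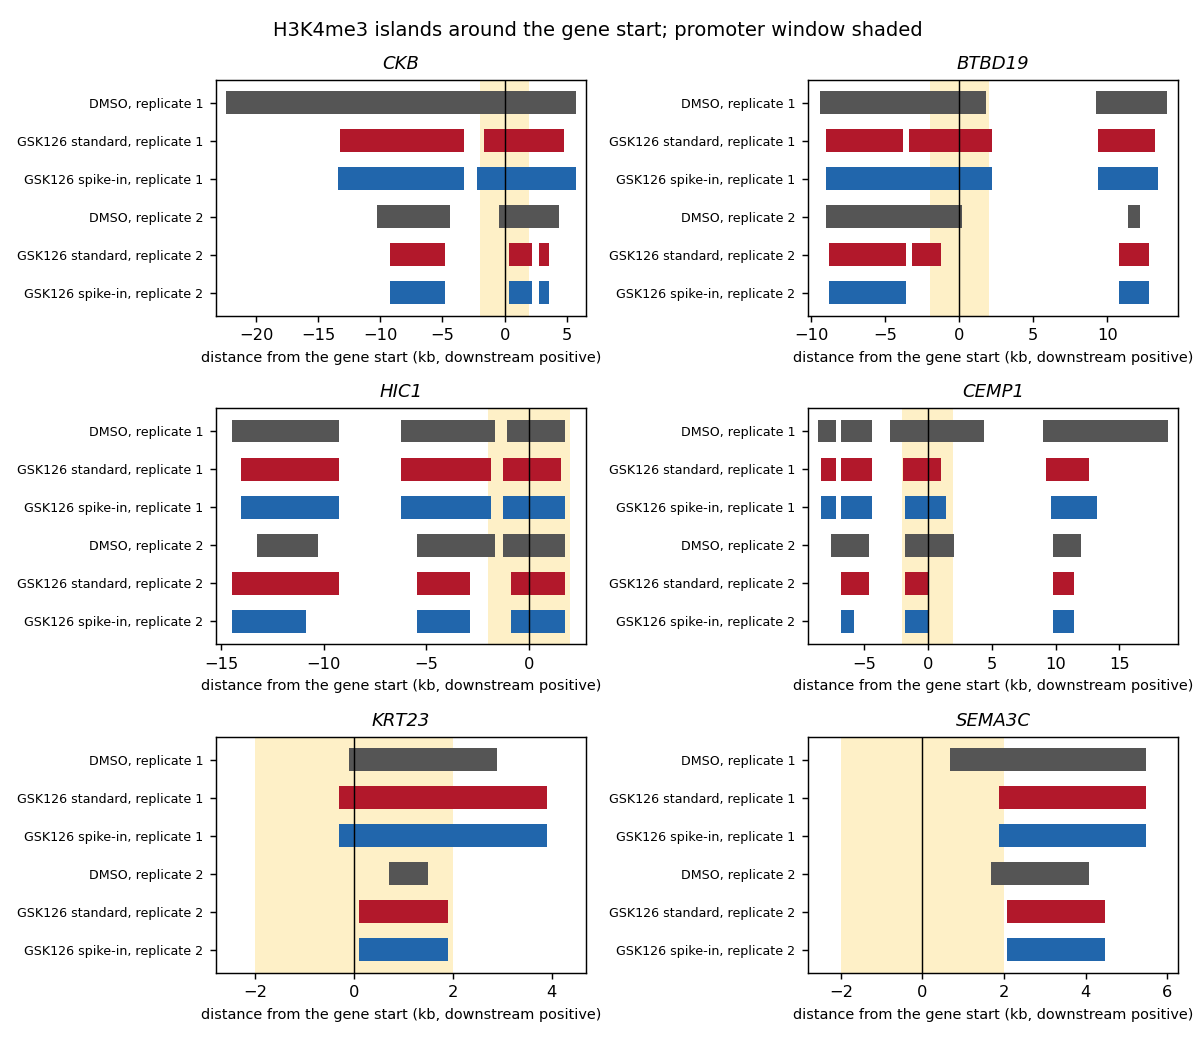
H3K4me3 islands (bars) around the gene start of CKB, BTBD19, HIC1, CEMP1, KRT23 and SEMA3C in the 6 lists, drawn by distance from the start in kb with the direction of transcription to the right. The shaded band is the promoter window of 2000 bp on either side. The bars show the shorter CEMP1 island, the longer KRT23 island, the split at CKB and BTBD19, and the upstream HIC1 island whose edge lay at the border of the window.

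No promoter passed the test in the other direction. RADX, ZSWIM1, HROB and RCBTB2, which came closest among the genes reported here, had log2 differences of 1.00, 0.665, 0.63 and 0.53 and an adjusted p of 0.359 each (limma with Benjamini-Hochberg adjustment). In the lower direction, ZNF185 (log2 difference -0.81) and CSF2 (-1.36), which encodes the cytokine GM-CSF, followed at an adjusted p of 0.17. The CSF2 island kept its class, at 4600 and 4000 bp in replicate 1 and 3200 and 2600 bp in replicate 2, while its score was 850.2 and 356.6, and 363.8 and 130.8.

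The 23 promoters widened in both normalizations included SPATA6L, ZKSCAN3, FOXN4, DERA, HPGD, ITGB2 and KRT23. At SPATA6L, related to a sperm protein gene, the island of replicate 1 measured 2400 bp with DMSO and 6200 bp with the inhibitor, and that of replicate 2 measured 400 bp and 800 bp. The island of replicate 1 joined the DMSO island of SPATA6L to a second one of 3400 bp (score 1776) that overlapped the window by 127 bp, and the call was not found with an overlap of at least 1 bp. ZKSCAN3, a zinc finger repressor, went from 2600 to 8000 bp and from 1000 to 1600 bp, and its score was higher in replicate 1 (1122 and 1989) but lower in replicate 2 (227.9 and 188.4). In replicate 1 the GSK126 island covered this DMSO island of ZKSCAN3 and an adjacent one of 4800 bp (712.8) that lay outside the window. ITGB2, the β2 integrin subunit of leukocytes, went from 3600 to 8400 bp and from 1400 to 2000 bp, with a score of 692.8 and 1006, and 80.69 and 180.6. In replicate 1 the ITGB2 island covered a second DMSO island of 3400 bp (339.8) outside the window, and at the canonical start, 11090 bp away, no island was found. KRT23, a keratin, went from 3000 to 4200 bp and from 800 to 1800 bp, with a score of 305.6 and 516.3, and 51.62 and 96.19. At KRT23, where no islands joined, length and score were thus higher with GSK126 in both replicates. Such joining was found in replicate 1 at 6 of the 31 widened promoters (19.4%, compared to 1.44% of all 11975) and in replicate 2 at none (0.0%, compared to 2.34%). The forkhead factor FOXN4 had weak islands throughout (40.71 and 113.4, 25.6 and 31.8). Of the 29 widened promoters with 1 island in each standard list, the downstream end alone extended by at least 400 bp in both replicates at 11 and the upstream end alone at 5. Over all 11098 promoters with 1 island in each list, 11.1% extended downstream by at least 400 bp in replicate 1 and 9.79% upstream. In replicate 2 the shares were 15.5% and 12.6%.

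In each of the 4 classes, the share of promoters with H3K27me3 was above that of the promoters from which the class came. An H3K27me3 island was present with DMSO in both replicates at 3532 of 20162 promoters (17.5%). It was present at 7 of the 10 gained promoters (70.0%, 95% Wilson confidence interval from 39.7% to 89.2%), compared to 30.9% of the 7421 promoters without H3K4me3 with DMSO, from which they came. All 5 promoters gained in both normalizations were among the 7. Of the widened promoters, 12 of 31 had it (38.7%, 23.7% to 56.2%), and of the narrowed promoters 74 of 384 (19.3%, 15.6% to 23.5%), compared to 8.21% of the 11975 promoters with H3K4me3 in all 4 lists. At the lost promoters the share was 4 of 14 (28.6%, 11.7% to 54.6%), compared to 8.65% of the 12143 from which they came. These shares are descriptions without a test, the intervals cover counting error only, and neighbouring promoters are not independent. With GSK126 and the spike-in lists, H3K27me3 was found in both replicates at 9.66% of all promoters. It was found at 3 of the 10 gained promoters (30.0%), compared to 17.5% of the 7421 from which they came. Of the widened promoters 10 of 31 had it (32.3%) and of the narrowed 46 of 384 (12.0%), compared to 4.03% of the 11975. At the lost promoters the share was 3 of 14 (21.4%), compared to 4.36% of the 12143.

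**Figure D5:**
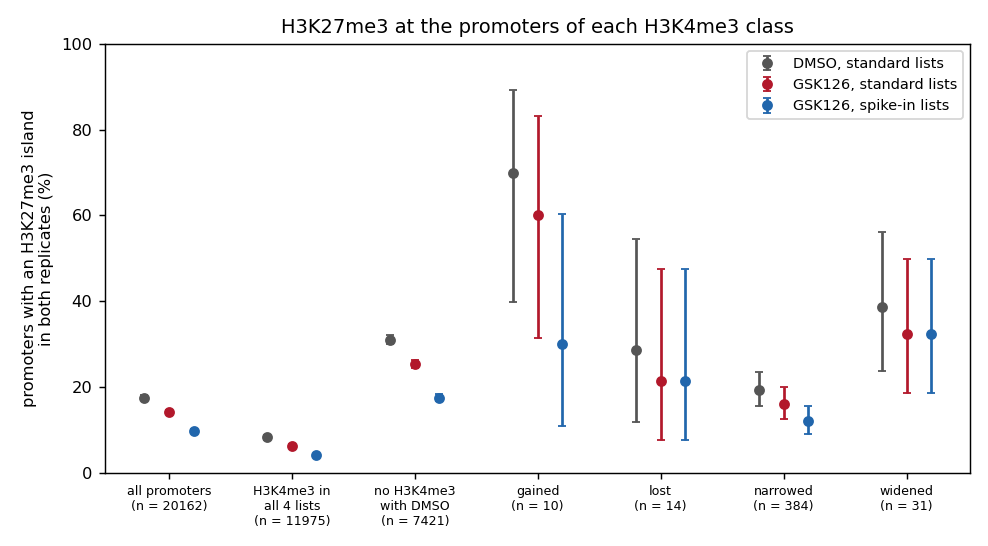
Share of promoters with an H3K27me3 island in both replicates (y axis, in percent, with 95% Wilson intervals) for all promoters, for those with and without H3K4me3, and for each H3K4me3 class of the standard lists. Grey marks DMSO, red GSK126 in the standard lists and blue GSK126 in the spike-in lists, and the highest DMSO value is that of the gained promoters, at 70.0%.

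Few promoters gained H3K4me3, whether or not H3K27me3 was still found with GSK126. By the spike-in lists, 1330 promoters had H3K27me3 with DMSO in both replicates and in neither with GSK126, and 1939 had it in all 4 lists. Among those of them without H3K4me3 with DMSO, 2 of 814 (0.246%) gained an H3K4me3 island where H3K27me3 was no longer found, and 3 of 1298 (0.231%) where it remained. By the standard lists these were 0 of 207 (0.0%) and 6 of 1833 (0.327%). Without H3K27me3 in either DMSO replicate, 3 of 4565 (0.0657%) gained one by the spike-in lists and 3 of 4727 (0.0635%) by the standard lists. Over all promoters without H3K4me3 with DMSO the share was 0.135%. For promoters with H3K4me3 in all 4 lists, H3K27me3 was again taken from the spike-in lists. The median log2 score ratio was -0.03 and -0.115 in replicates 1 and 2 at the 433 promoters where H3K27me3 was no longer found. It was -0.09 and -0.13 at the 480 where it remained, and 0.09 and -0.08 at the 10576 without H3K27me3 with DMSO. Narrowing was found at 5.54%, 9.58% and 2.71% of these promoters, in the same order. The difference between these groups was not tested.

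Genes that write or erase H3K4 methylation mostly kept their own H3K4me3 islands. Of 19 subunits of H3K4 methyltransferase complexes or related enzymes, 17 had an island in all 4 lists. WDR82, a subunit of the SETD1 complexes, narrowed from 5400 to 3600 bp and from 2600 to 1600 bp, and SMYD3, a SET domain methyltransferase, from 4800 to 2800 bp and from 3000 to 1800 bp. The DMSO and GSK126 scores of WDR82 were 1646 and 2371 in replicate 1 and 436.6 and 427.1 in replicate 2. At the canonical start of WDR82, 9371 bp away, no narrowing was called. These were 2 of 17, or 11.8%, compared to 3.21% over all promoters. None of the 6 H3K4 demethylase genes, all with islands in all 4 lists, was gained, lost, narrowed or widened. Of 13 genes for H3K27 methylation enzymes and partners, 10 had an island in all 4 lists, and PHF1, which encodes a Polycomb-like partner of PRC2, was narrowed (10800 to 5400 bp and 3600 to 2000 bp, with scores of 3554 and 1304, and 459.7 and 320.1). In replicate 1 the PHF1 island had split, and a GSK126 piece of 4200 bp (2408) lay within the DMSO island outside the window. The target EZH2 itself kept its island in both replicates (4200 and 4600 bp, 3000 and 3000 bp).

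Of the housekeeping and lineage genes, few were called, as over all promoters, where 3.21% of those with an island in all 4 lists were narrowed. Of 86 cytosolic ribosomal protein genes, 78 had an island in all 4 lists and 1, RPL27A, was narrowed (10200 to 5600 bp and 4600 to 3200 bp), with a further GSK126 island of 4000 bp (570.6) outside the window in replicate 1. ISG15, an interferon-induced ubiquitin-like modifier, was the only 1 of 41 interferon-stimulated genes that was narrowed in both normalizations (7800 to 5400 bp and 5200 to 3800 bp), and its score was higher in replicate 1 and lower in replicate 2 (6030 and 6994, 1922 and 1679). The annotated start of ISG15 shares its locus with HES4, and at its canonical start, 12359 bp away, the island measured 3400 and 3000 bp in replicate 1, and 1800 and 2600 bp in replicate 2. Of 30 genes of epithelial to mesenchymal transition and 37 of the EGFR and ERK pathway, 1 each was narrowed in the standard lists, OVOL1 and TGFA, and none in both normalizations. Among members with an island in all 4 lists, the narrowed share was 1.28% for ribosomal and 5.88% for interferon-stimulated genes. It was 4.76% for the transition genes and 3.23% for the EGFR and ERK pathway. No CDK inhibitor (of 7), gene of the lung epithelial lineage (of 30) or MHC gene (of 26) changed class in the standard lists. Only 5, 14 and 12 of them, in the same order, had an island in all 4 lists. In the spike-in lists 2 MHC genes were narrowed, and 1 gene of the lung epithelial lineage was lost and 1 narrowed. CDKN2A, a known Polycomb target in other cells, measured 7800 and 6600 bp in replicate 1 and 3800 and 3400 bp in replicate 2. At its canonical start, 20444 bp away, the CDKN2A islands measured 4400 and 4600 bp, and 2600 and 2400 bp.

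Among 172 developmental transcription factor genes, 69 had an island in all 4 lists and 87 in none. LHX2 was lost, FOXN4 was widened, and FOXO6 and HOXB9 were narrowed in both normalizations. In the standard lists 3 of the 69 were narrowed (4.35%, compared to 3.21% over all promoters). FOXO6, a forkhead factor, went from 5800 to 4000 bp and from 3600 to 2000 bp, and HOXB9 from 6800 to 3800 bp and from 3000 to 2200 bp. Of 508 ZNF zinc finger genes, 418 had an island in all 4 lists and 12 were narrowed in the standard lists (2.87%, close to the 3.21% over all promoters), 8 of them in both normalizations. ZNF485 narrowed from 4000 to 2000 bp and from 2200 to 1400 bp, and ZNF521 from 2600 to 1600 bp and from 800 to 400 bp. Members of 3 gene families mostly lacked H3K4me3 with either treatment: 410 of 414 olfactory receptor genes, 67 of 69 cancer-testis antigen genes and 47 of 53 clustered protocadherin genes had no island in any list, and none was gained. Genes that the study used for ChIP-qPCR are given here at their annotated starts, which need not be the sites that were amplified and lie 33301 bp (ACTB), 62058 bp (MYT1) and 3991 bp (CCND2) from the canonical starts. ACTB measured 3800 and 3600 bp in replicate 1 and 2600 bp in both lists of replicate 2, GAPDH 12200 and 7800 bp and 6800 and 5600 bp, MYT1 had a weak island in replicate 1 only (50.21 and 59.91), and CCND2 had no island in any list.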

How the data were processed

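ChIP-seq with antibodies against H3K4me3 and H3K27me3 was performed by the authors in PC9 cells, with 2 libraries for each antibody and treatment. The submitters' processing notes name hg19, BWA and SAMtools (0.1.18). The authors aligned single-end tags, discarded duplicates and tags without a unique position, and downsampled the human tags, to equal totals within a replicate (standard) or to match D. melanogaster tags (spike-in). Islands were then called for each library with SICER at an E-value of 1, with gaps of 200 bp for H3K4me3 and 600 bp for H3K27me3. The score that the authors deposited with every island depends on the tag number of the list; it was summed over the islands of a promoter and taken as log2. Antibody and treatment came from the sample labels. Replicates were paired (DMSO with GSK126) as the authors normalized them; libraries with the same number deviated together (r = 0.613 over 11975 promoters), a value that also holds the difference in depth.

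Promoter classes, overlaps and sequence features were computed with Python 3.11.15, NumPy 2.4.6, pandas 2.3.3, SciPy 1.17.1 and pysam 0.24.0, and plots with Matplotlib 3.10.9. Scores were tested with limma 3.58.1 in R 4.3.3 (intensity trend, replicate block, Benjamini-Hochberg adjustment over 11975 promoters). The classing was run on simulated islands without noise, which checks only that the rule was coded as stated. In simulated scores with independent noise, the test recovered 78% of promoters changed by a log2 of 1 and 100% of those changed by 2. It made 0 false calls without a change. Neither simulation held the split or shared islands seen in the data. The lists hold islands and not tag counts, so no interval for the tags of an island was computed, and the depth is given as tags per window. Genes named are the 10 with the largest values of each class called in both replicates and both normalizations, the 5 with the smallest adjusted p in each direction, members of gene lists that changed class in both normalizations (at most 5 for each list), marker genes and genes used for ChIP-qPCR; other genes named (OVOL1, TGFA, CDKN2A, EZH2 and the remaining members of small classes) were chosen after their values were seen. Some genes and sequences that this rule names are not reported here. Members and gene lists were chosen with earlier results of these data known. Alternatives were other overlaps, windows, thresholds, lengths and gene starts, loci in place of genes, autosomes only, omission of each replicate and of the pairing.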

Additional observations from a re-analysis of the deposited data

How the results depend on the processing

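Calls in both replicates were compared with those under other settings. Leaving out replicate 1 or 2, which counts the calls of the other replicate alone, gave 68 to 159 gained, 170 to 186 lost, 2002 to 2087 narrowed and 267 to 1049 widened promoters in the standard lists, and 39 to 123, 207 to 231, 1460 to 2577 and 526 to 768 in the spike-in lists. With the spike-in lists in place of the standard lists, 5 promoters were gained and 25 lost. With an overlap of at least 1000 bp, 2 were gained and 18 widened in the standard lists, and 2 and 20 in the spike-in lists. With islands of at least 2 times the lowest score, 0 were gained in either normalization, and 12 were lost in the standard lists, of which 3 were among the 14. With limits of 0.5 and 2 times, 15 were narrowed and 2 widened, and with the length inside the window 127 were narrowed. Without the replicate block (the same call in all 4 pairs of a GSK126 with a DMSO list), 17 were narrowed and 2 widened, and no promoter passed the score test (0 lower, with 2 at an unadjusted p under 0.05, by limma). This setting compares lists of replicate 1 with lists of replicate 2, which differ in depth by a ratio of 5.86. It therefore cannot show how stable the calls within replicates are. The spike-in lists gave 2174 lower and 10 higher scores, with a median log2 difference of -0.24, and 2 lower after the median was subtracted. These lists held 83.6% and 86.9% of the tags per window of the DMSO lists. At the start of the canonical transcript, a setting chosen after the data were seen, which lies over 2000 bp away for 2745 genes, 9 were gained, 13 lost, 395 narrowed and 28 widened, of which 7, 9, 343 and 26 were among those above. Of the 35 genes named as the largest of their class, CEMP1 was the only one with its class under all 10 alternatives, and none took the opposite class. The alternatives of spike-in lists and of autosomes only could not fail for these genes, which were chosen as called in both normalizations and lie on autosomes. The share of all promoters with H3K27me3 was 16.3% with an overlap of at least 1000 bp, 19.1% with spike-in lists and 19.2% to 19.5% with 1 replicate left out. The other 108 of 146 values recomputed stayed within 1.5 times the count or within the interval or spread, but the genes behind a count could change: 7 of the 14 lost were among 19 with an overlap of at least 1000 bp, 8 among 15 with a window of 1000 bp, and 9 among 17 with any coding transcript start. Depth limits what can be called most in replicate 2, at 0.302 tags per window of 200 bp.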

Other observations

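Narrowing was spread over the chromosomes. Of the promoters with an island in all 4 standard lists, the share narrowed in both replicates was highest on chromosome 22 (13 of 291, 4.47%) and lowest on chromosome 13 (1 of 204, 0.49%), with 3.88% on chromosome 1 and 2.58% on the X chromosome. These shares were not tested against each other.

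The share of narrowed promoters was similar for short and long islands when length was taken from the other replicate. In replicate 1, 17.9% of the 3170 promoters with the shortest DMSO islands in replicate 2 (200 to 1800 bp) were narrowed, compared to 17.1% of the 2618 with the longest (3600 to 24600 bp). In replicate 2, 17.8% of the 3515 promoters with the shortest DMSO islands in replicate 1 (400 to 3600 bp) were narrowed, compared to 18.7% of the 2908 with the longest (6000 to 37800 bp). Widening was more frequent at short islands, with 3.79% and 0.497% for the shortest and longest in replicate 1, and 13.2% and 5.78% in replicate 2. The median log2 score ratio followed the same order, at 0.136 and 0.0 in replicate 1 and -0.02 and -0.15 in replicate 2.

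The promoters lost only with the spike-in lists included THPO, CDK5RAP3 and HOPX, which were chosen after their values were seen. THPO encodes thrombopoietin and was narrowed in the standard lists (4800 to 2000 bp and 2200 to 1000 bp). At CDK5RAP3 the standard islands went from 5400 bp (score 3358) to 1200 bp (38.27) in replicate 1 and from 1400 bp (25.2) to none in replicate 2. HOPX, a homeodomain-only protein of lung alveolar cells, had DMSO islands of 1000 bp (47.31) and 600 bp (32.94), and with GSK126 a standard island of 600 bp (37.13) in replicate 1 only.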
